A study of Mus musculus with 11 samples.

Results

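Transcripts of 65 autophagy and lysosome genes were followed in the hypothalamus and cerebellum of mice that had eaten or fasted overnight. Members were chosen by a rule on gene symbols, set with earlier results of these data known. It took the probes naming 1 gene whose symbol begins with Atg and a digit, Gabarap, Map1lc3, Lamp and a digit, Atp6v0, Atp6v1 or Atp6ap. Probes naming 1 gene with the symbol Ulk1, Ulk2 or Cts and 1 letter were taken too. The rule took 78 of the 21590 probes that name 1 gene, and 65 of the 18048 genes these probes cover. The members fall into 26 probes of 22 autophagy genes, 22 probes of 18 cathepsins, 4 probes of 4 Lamp membrane proteins and 26 probes of 21 subunits and accessory proteins of the vacuolar proton pump. A further 6 probes that list such a gene together with another were not used. All 78 probes were tested, and no filter on low values was applied.

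RNA came from female wild-type SV/129 mice aged 10 weeks, a strain of laboratory mouse. Food was taken from 6 of them for 16 hours from the start of the dark phase, and the other 6 kept their chow; all had water. RNA of the 6 mice was combined for each feeding state and region, and each of the 4 pools was hybridised to 1-colour CodeLink arrays, which carry probes for the whole mouse transcriptome. Of fed hypothalamus, fasted hypothalamus and fed cerebellum there were 3 arrays each, and of fasted cerebellum 2, because 1 array failed quality control. Arrays of a group therefore repeat 1 pool: variation among mice is not in their spread, only that of labelling and hybridisation, and every test below compares pools. The deposited value of a probe is a linear ratio to its own median over the 3 fed arrays of the region, so a fed ratio lies near 1. Ratios given here were further scaled to the median of their array. No level can be set against that of another probe or of the other region. For the same reason the tissue labels could not be checked by the level of marker genes.

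Autophagy encloses cytoplasm in a double membrane, the autophagosome, and delivers it to lysosomes for breakdown. The Ulk kinase complex starts the process, a lipid kinase complex holding Atg14 marks the membrane, and a pair of ubiquitin-like conjugation systems follows: Atg7 activates both Atg12, which is joined to Atg5, and the Atg8 family (the Map1lc3 and Gabarap proteins), which is joined to membrane lipid. In lysosomes, cathepsins digest proteins, Lamp proteins line the membrane, and the vacuolar proton pump acidifies the lumen with its membrane sector V0 and its ATP-splitting sector V1. Fasting is a classical trigger of autophagy in liver, and in hypothalamic neurons autophagy has been tied to the control of feeding. Much of its control acts on proteins, by mTOR and AMP kinase, while the transcription factor Tfeb and its relatives act on lysosome and autophagy genes through E-box letters.

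The members' promoters were searched for these letters, to set them beside the calls. RefSeq promoters of GRCm38.p6, 250 bases before to 50 bases after the start site, were held for 52 of the 65 genes (57 promoters). The E-box core CACGTG, a palindrome, stood in 12 of the 57 (21.1%) against 7.15% of all 32851 promoters of the same length. The longer TCACGTGA, also a palindrome, stood in 6 (10.5% against 0.974%), and GTCACGTG, read on both strands, in 7 (12.3% against 2.25%); both contain the core, so the counts overlap. Windows of 80 bases around the core are shown for the 4 genes with the core that were lower in fasted cerebellum and for 4 lysosome genes with the core that were called in neither region (called: limma adjusted p under 0.05), 5′ to 3′ on the strand of the gene, with each core in capitals.
Atg5, chr10:44268288-44268367, plus strand: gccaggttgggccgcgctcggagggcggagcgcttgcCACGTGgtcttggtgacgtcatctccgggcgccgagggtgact
Atg7, chr6:114670927-114671006, plus strand: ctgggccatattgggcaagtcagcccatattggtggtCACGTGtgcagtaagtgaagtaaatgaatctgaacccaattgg
Atg14, chr14:47568393-47568472, minus strand: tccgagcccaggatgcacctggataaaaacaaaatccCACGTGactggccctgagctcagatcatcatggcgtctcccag
Atp6v1a, chr16:44139348-44139427, minus strand: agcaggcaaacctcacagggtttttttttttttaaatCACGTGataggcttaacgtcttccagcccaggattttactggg
Ctsa, chr2:164833732-164833811, plus strand: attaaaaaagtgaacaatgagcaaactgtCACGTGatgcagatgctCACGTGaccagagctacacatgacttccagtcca
Ctsd, chr7:142387883-142387962, minus strand: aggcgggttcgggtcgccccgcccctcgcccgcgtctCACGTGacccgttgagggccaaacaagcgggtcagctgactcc
Lamp1, chr8:13159086-13159165, plus strand: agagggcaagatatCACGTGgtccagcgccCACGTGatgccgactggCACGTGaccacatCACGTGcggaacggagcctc
Atp6v0d1, chr8:105566025-105566104, minus strand: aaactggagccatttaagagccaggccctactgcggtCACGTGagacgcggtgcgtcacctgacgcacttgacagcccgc
The Lamp1 window holds 4 cores, that of Ctsa holds 2 and the others 1 each. Of the 12 genes with the core, 5 were called in a region and 7 in neither; 4 were lower in fasted cerebellum (Atg5, Atg7, Atg14 and Atp6v1a), 2 were lower in fasted hypothalamus (Atg7 and Atp6v0e) and 0 were higher in either. Among the 40 genes with a promoter but no core, 12 were called in a region, 5 of them lower in cerebellum. A match of letters is a description of the sequence and not a binding site.

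In fasted hypothalamus, 9 member probes were called by limma at an adjusted p under 0.05: Ctse and a probe of Atg4a were higher, while Lamp5, Atg7, Ctsh, Atp6v0a1, Atg12, Atp6v0e and Gabarap were lower. That is 11.5% of the 78, against 14.2% of all 34999 probes, so the members were called no more often than the arrays at large. By direction, 2 were higher (6.34% of all probes were) and 7 lower (7.89% of all probes). None of the 9 reached 1.5-fold. The median change over the 78 probes was -0.02 on the log2 scale, beside 0.00 over all probes. On 24 probes (30.8%) the fasted arrays lay wholly above (10) or below (14) the fed ones, against 37.3% of all probes (17.8% above and 19.5% below).

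In fasted cerebellum, 16 member probes were called, 3 higher and 13 lower. Lower were Atg12, Atp6v1b2, Atg5, Atg13, Atp6v0a2, Ulk2, Atg14, Ctsc, Atg7, Atp6v1a, Ulk1, Ctsh and Atp6v1b1; higher were Gabarapl1, Atp6v0e2 and Atp6v1d. The share, 20.5%, stood beside 20.9% of all probes; by direction, 9.66% of all probes were higher and 11.2% lower. Only Atg12 reached 1.5-fold. The median change over the 78 was -0.01, beside 0.01 over all probes, and 42 members (53.8%; 17 above and 25 below) had fasted arrays apart from the fed ones, against 50% of all probes (25.1% above and 24.9% below). The share of members called therefore lay at the background in both regions, and the values below describe single genes.

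**Figure D1:**
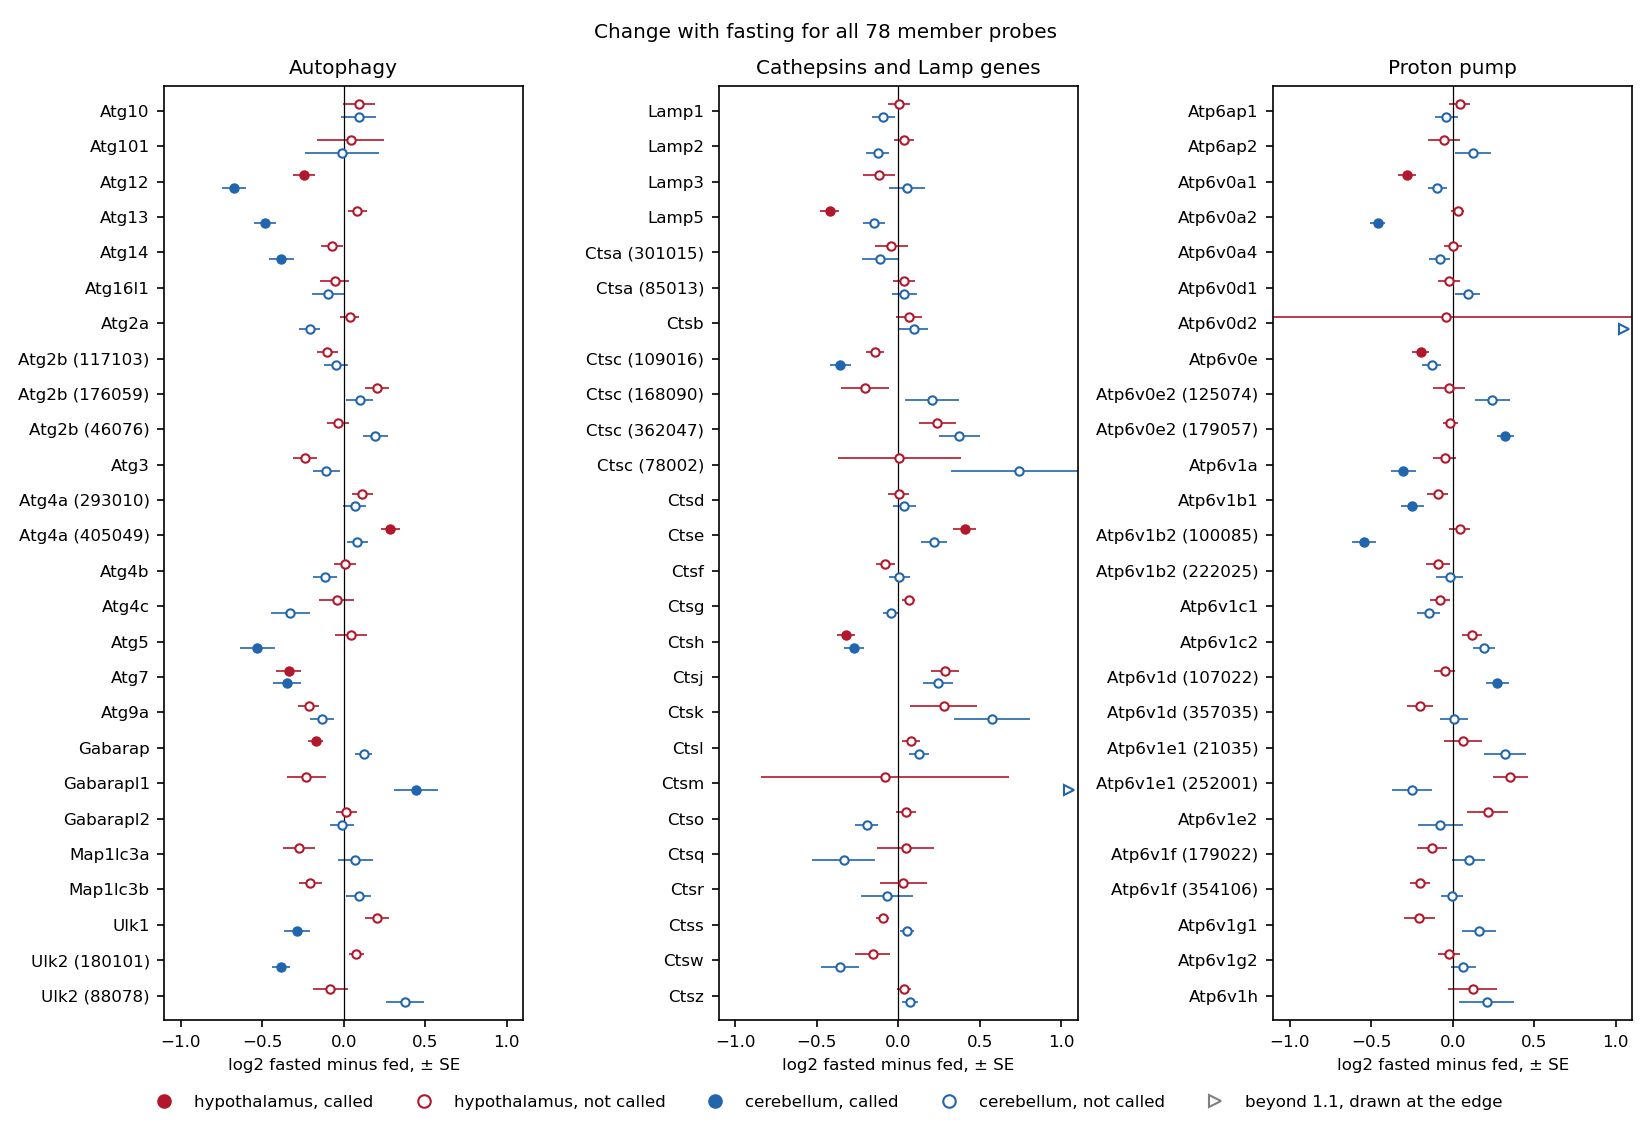
Change with fasting (log2 of fasted over fed, after division of each array by its median ratio) of all 78 member probes in hypothalamus (red) and cerebellum (blue), with bars of 1 SE to each side. Filled points were called at a limma adjusted p under 0.05 (9 and 16 probes), open points were not, and arrowheads mark 2 cerebellar values beyond the axis, Atp6v0d2 and Ctsm.

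Calls in both regions were few: Atg12, Atg7 and Ctsh were lower in each, no probe was higher in each or called in opposite directions, and 56 of the 78 were called in neither. The test of the difference between regions (the hypothalamic change minus the cerebellar change) called 11 member probes, 14.1% against 17.7% of all probes, 8 with the more positive change in hypothalamus (8.66% of all probes) and 3 with the more negative (9.01%). The 8 were Atg5, Atg12, Atg13, Ulk1, 1 probe of Ulk2, Atp6v0a2, Atp6v1b2 and 1 probe of Atp6v1e1; the 3 were Gabarapl1, Gabarap and 1 probe of Atp6v0e2. Autophagy genes gave 7 of the 11 calls (26.9% of the 26 autophagy probes), the proton pump 4 (15.4%), and the cathepsins and Lamp genes 0. With no adjustment, 3 of the 22 cathepsin probes and 1 of the 4 Lamp probes had a p under 0.05 in limma for that difference.

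Some properties of the arrays bear on these values. On fasted cerebellum array 1, 104 of all probes stood over 10-fold above the fed median, against 12 to 34 on each of the other 10 arrays. Scaled ratios under 0.1 were found at 71 probes of that array, against 18 to 53 on each other array. In either direction, 4 members departed over 2-fold there. Leaving out that array lowered the cerebellar calls from 16 to 9, and without fed cerebellum array 2 there were 10. In hypothalamus the count fell from 9 to 4 without fed array 1, to 4 without fed array 2, to 5 without fasted array 2 and to 3 without fasted array 3. Quantile normalization left 0 member calls in either region or in the difference, with 4 members in hypothalamus, 8 in cerebellum and 5 in the difference at an unadjusted p under 0.05. With only the arrays of 1 region in the fit, the hypothalamic calls of Atg12, Gabarap, Atp6v0e, Atg7 and Atg4a and the cerebellar calls of Atp6v1b1, Ulk1, Atg5 and Gabarapl1 were lost. Shares of all probes called under these settings are not given here. The counts above therefore do not compare the members with the arrays at large. Calls that rest on 1 array or another scaling are named with the genes below. A fall in bulk tissue cannot tell fewer cells of a type from less RNA per cell.

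Of the 5 member probes of the Ulk complex, 3 were lower in fasted cerebellum (11.2% of all probes were). In hypothalamus 0 were called, with 1 at an unadjusted p under 0.05 in limma. Rb1cc1, of the same complex but outside the symbol rule, was called in neither region. It stood at -0.16 ± 0.09 in hypothalamus and -0.08 ± 0.10 in cerebellum. Atg13 is the scaffold that ties the Ulk kinases to their partners. Its scaled ratio was 1, 1.02 and 0.922 in fed cerebellum and 0.697 and 0.705 in fasted cerebellum. Both fasted arrays lay below all fed ones, a change of -0.48 ± 0.07 (SE; limma adjusted p = 0.00107). In hypothalamus Atg13 read 1.09, 0.983 and 1 fed and 1.14, 1.05 and 1.07 fasted, groups that overlapped (0.08 ± 0.06, adjusted p = 0.364). The regions differed by 0.56 ± 0.09 (adjusted p = 0.00315), a call kept without any 1 array.

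Ulk1, a kinase that starts autophagosome formation, was lower in fasted cerebellum by limma, at 0.994, 1.1 and 1 fed and 0.77 and 0.923 fasted (-0.29 ± 0.08, adjusted p = 0.0322). The 2 fasted arrays lay below the fed ones but apart from each other. The call was lost without fed cerebellum array 1, without fed array 2 and without fasted array 1; without the last the change was -0.16 (adjusted p = 0.228). Fasted hypothalamus read 1.2, 1.14 and 1.17 against 0.995, 1 and 1.05 fed, above on every array but not called (0.20 ± 0.07, adjusted p = 0.0851). The difference between regions was 0.49 ± 0.11 (adjusted p = 0.0137) and was called without any 1 array too.

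Ulk2, the sister kinase, had 2 probes that went opposite ways in cerebellum. The probe designed on a cDNA clone read 1, 1.01 and 0.963 fed and 0.796 and 0.725 fasted, and was lower (-0.39 ± 0.05, limma adjusted p = 0.00109). The probe designed on an expressed sequence tag (EST) read 1, 1 and 0.826 fed and 1.36 and 1.09 fasted, and was not called (0.38 ± 0.12, adjusted p = 0.0541). The gene therefore has no single direction here, and the region difference of the first probe, 0.46 ± 0.07 (adjusted p = 0.00283), holds for that probe. In hypothalamus neither was called, at 0.08 and -0.08. Atg101, the partner of Atg13, stayed uncalled with wide errors: 0.04 ± 0.20 in hypothalamus and -0.01 ± 0.23 in cerebellum.

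Of the 16 probes of the other Atg genes, 4 were lower in fasted cerebellum and 0 higher, and in hypothalamus 2 were lower and 1 higher. These shares, 25% and 18.8%, lay near those of all probes, 20.9% and 14.2%. Atg14 directs the lipid kinase Pik3c3 to the forming autophagosome. In cerebellum it read 1, 1.02 and 0.982 fed and 0.779 and 0.753 fasted, without overlap (-0.38 ± 0.08, limma adjusted p = 0.00742). In hypothalamus its change was -0.07 ± 0.07 (adjusted p = 0.504), and the difference between regions was not called (0.31 ± 0.10, adjusted p = 0.0684).

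Atg7, the enzyme that activates both ubiquitin-like systems, was lower in both regions by nearly equal amounts. Hypothalamic ratios were 1.1, 1 and 0.897 fed and 0.83, 0.781 and 0.756 fasted. Cerebellar ratios were 1.03, 1 and 0.937 fed and 0.763 and 0.79 fasted. The fasted arrays lay below the fed ones in each region, by -0.34 ± 0.08 (limma adjusted p = 0.023) and -0.35 ± 0.09 (adjusted p = 0.0201). The region difference was 0.01 ± 0.11, with a 95% interval from -0.25 to 0.27. Each call was lost when any of 4 arrays was left out: fed 1, fed 2, fasted 2 or fasted 3 in hypothalamus, and fed 1, fed 2, fasted 1 or fasted 2 in cerebellum.

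Atg12, the ubiquitin-like protein joined to Atg5, had the largest called change of any member in either region. In cerebellum it read 0.976, 1.01 and 1 fed and 0.648 and 0.599 fasted, so that it fell by 37.3% (log2 -0.67 ± 0.08, limma adjusted p = 0.000366), a call kept without any 1 array. In hypothalamus it read 1, 1.01 and 0.863 fed and 0.852, 0.782 and 0.79 fasted. The nearest hypothalamic arrays of the groups all but met there, and the change of -0.24 ± 0.07 (adjusted p = 0.0464) was lost when any of 10 of the 11 arrays was left out, fed hypothalamus array 3 being the exception. The fall was larger in cerebellum (region difference 0.43 ± 0.10, adjusted p = 0.0205; 0.0758 without fasted cerebellum array 2).

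Atg5, to which Atg12 is joined, was lower in fasted cerebellum: 1, 1.01 and 0.84 fed against 0.717 and 0.601 fasted, without overlap (-0.53 ± 0.11, limma adjusted p = 0.00866). Without fasted array 2 the change was -0.40 and the adjusted p 0.0671. In hypothalamus Atg5 read 1, 1.08 and 0.963 fed and 0.99, 1.13 and 1.02 fasted, overlapping groups (0.05 ± 0.10). The regions differed by 0.58 ± 0.15 (adjusted p = 0.0267), a call lost when any of 6 arrays was left out (fed hypothalamus 1 and 3, fasted hypothalamus 2, fed cerebellum 1 and 2, fasted cerebellum 2). Atg16l1, which completes the Atg12 and Atg5 complex, was called in neither region (-0.06 ± 0.09 and -0.09 ± 0.10). So were Atg3 and Atg10, the enzymes that pass on the Atg8 family and Atg12: Atg3 stood at -0.24 ± 0.07 in hypothalamus (adjusted p = 0.0599) and -0.11 ± 0.08 in cerebellum, Atg10 at 0.09 in both.

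**Figure D2:**
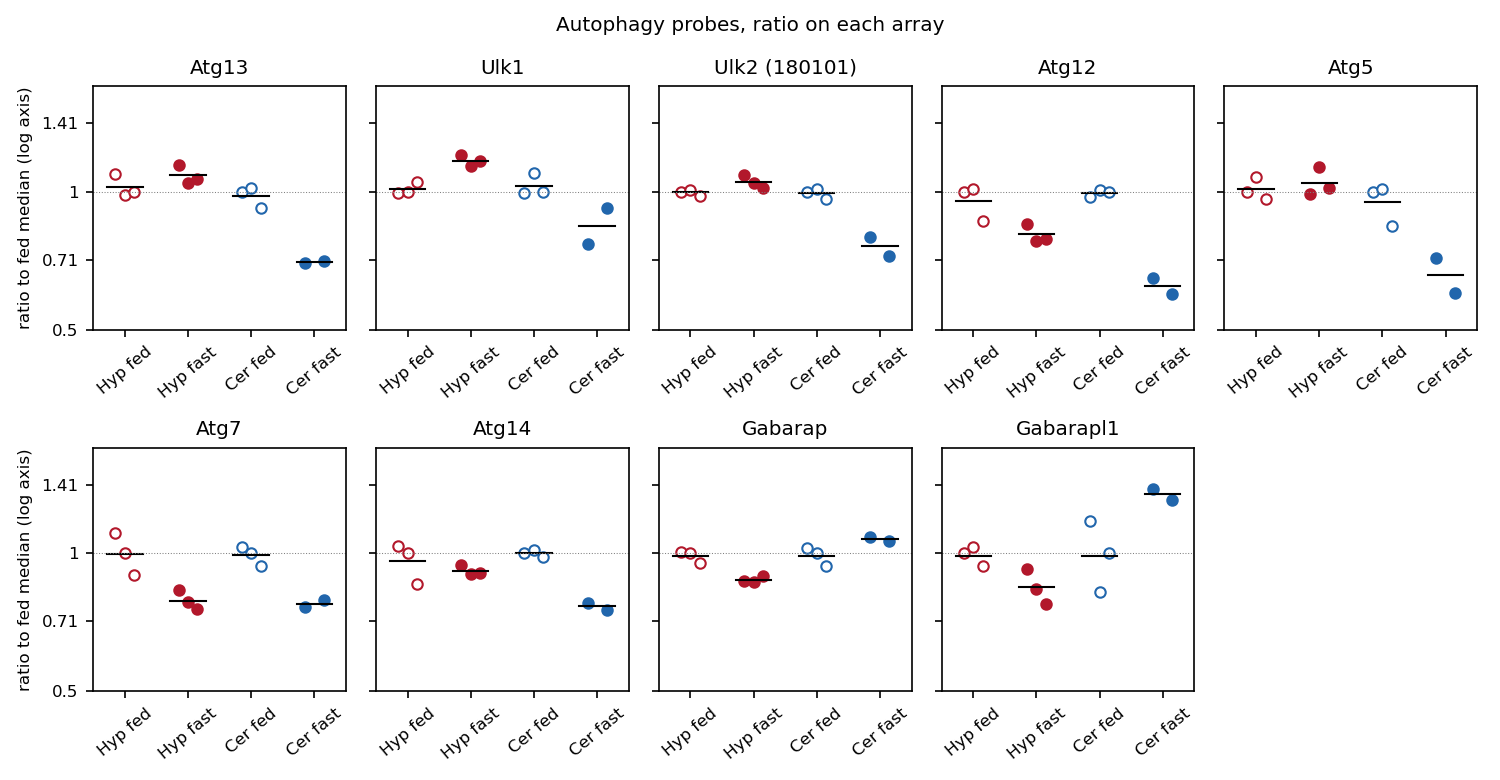
Scaled ratio to the fed median of the region (log axis) on each array for autophagy probes, hypothalamus in red and cerebellum in blue, fed arrays as open and fasted arrays as filled points, with black bars at the geometric group means. Atg12, Atg5 and Atg13 were clearly apart between fed and fasted arrays in cerebellum, with Atg12 at 0.648 and 0.599 on the fasted arrays, while Gabarapl1 was above its fed arrays there at 1.38 and 1.31.

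The Atg8 family, the proteins that coat the autophagosome and are the usual readout of autophagy as protein, was lower at 1 of 5 probes in hypothalamus and higher at 1 of 5 in cerebellum. That is 20% called in each region, against 14.2% of all probes in hypothalamus and 20.9% in cerebellum. The median change of the family was -0.21 in hypothalamus and 0.09 in cerebellum. Gabarap read 1.01, 1 and 0.951 fed and 0.869, 0.865 and 0.891 fasted in hypothalamus, wholly below (-0.17 ± 0.05, limma adjusted p = 0.0374). The call was lost when any of 8 of the 11 arrays was left out, with adjusted p up to 0.11; fed hypothalamus 3 and fed cerebellum 1 and 3 were the ones whose loss left it. In cerebellum Gabarap read 1.03, 1 and 0.938 fed and 1.08 and 1.06 fasted, above but not called (0.12 ± 0.05, adjusted p = 0.127). The regions differed by -0.29 ± 0.07 (adjusted p = 0.018; 0.0666 without fasted cerebellum array 1).

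Gabarapl1 had the same pattern with larger values and larger errors. Cerebellar ratios were 1.17, 0.821 and 1 fed and 1.38 and 1.31 fasted, a change of 0.44 ± 0.13 (limma adjusted p = 0.0465). This call was lost when any of 10 of the 11 arrays was left out, fed cerebellum array 1 being the exception, and under another scaling: adjusted p = 0.131 with each array divided by its 75th percentile and 0.0621 with no scaling. Hypothalamic ratios were 1, 1.03 and 0.937 fed and 0.924, 0.834 and 0.776 fasted, below but not called (-0.23 ± 0.12, adjusted p = 0.223). The region difference was -0.67 ± 0.18 (adjusted p = 0.0331) and was lost when any of 7 arrays was left out (fed hypothalamus 1 and 2, fasted hypothalamus 2 and 3, fed cerebellum 3, both fasted cerebellum arrays).

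The remaining Atg8 genes, named here for their wide use as markers and with their values already seen, were not called. Map1lc3a read 1.03, 1 and 0.847 fed and 0.793, 0.717 and 0.865 fasted in hypothalamus, overlapping groups (-0.27 ± 0.10, limma adjusted p = 0.0871), and changed by 0.07 ± 0.11 in cerebellum. Map1lc3b read 1.11, 1 and 0.947 fed and 0.832, 0.897 and 0.919 fasted in hypothalamus, wholly below (-0.21 ± 0.07, adjusted p = 0.0786), and stood at 0.09 ± 0.08 in cerebellum. Gabarapl2 stood at 0.02 ± 0.06 and -0.01 ± 0.07. In hypothalamus 3 of the 5 probes lay wholly below their fed arrays (Gabarap, Gabarapl1 and Map1lc3b); in cerebellum 2 lay wholly above (Gabarap and Gabarapl1). Of all probes, 19.5% lay wholly below in hypothalamus and 25.1% wholly above in cerebellum. Of the Atg4 proteases, which trim the Atg8 family, an EST probe of Atg4a was higher in hypothalamus, at 0.966, 1 and 1.08 fed and 1.23, 1.2 and 1.29 fasted (0.29 ± 0.06, adjusted p = 0.0155). The other Atg4a probe stood at 0.11 ± 0.06 (adjusted p = 0.256). The call was lost without fed hypothalamus array 1 or 2, without fasted array 3, with scaling to the 75th percentile (0.18, adjusted p = 0.0804) and with only the hypothalamic arrays in the fit (adjusted p = 0.052).

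Lamp5 is a relative of Lamp1 that is expressed by neurons. Among the 4 Lamp genes it was the only one called, lower in fasted hypothalamus: 0.968, 1.02 and 1 fed and 0.721, 0.776 and 0.733 fasted, so that it fell by 25.3% (log2 -0.42 ± 0.06, limma adjusted p = 0.00491), a call kept without any 1 array. In cerebellum it read 1.06, 1 and 0.911 fed and 0.873 and 0.915 fasted, overlapping groups (-0.15 ± 0.07, adjusted p = 0.173). The regions were not called different (-0.28 ± 0.09, adjusted p = 0.0711). Lamp2, a receptor of chaperone-mediated autophagy, stood at 0.04 ± 0.06 in hypothalamus and -0.13 ± 0.07 in cerebellum (adjusted p = 0.241), and Lamp1, the general lysosome marker, at 0.01 ± 0.07 and -0.09 ± 0.07. The Lamp1 intervals ran from -0.14 to 0.15 and from -0.26 to 0.07. Neuronal markers moved beside Lamp5: 4 of 18 pan-neuronal marker probes (22.2%) were lower and 0 higher in fasted hypothalamus. Of all probes, 7.89% were lower and 6.34% higher there. The pan-neuronal median ratios were 0.899 to 0.918 on the fasted arrays against 1 to 1.01 fed. The neuronal markers were chosen with earlier results of these data known, and their part in the Lamp5 result was not tested.

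Of the 22 cathepsin probes, 2 were called in each region (9.09%), 1 higher and 1 lower in hypothalamus and 2 lower in cerebellum. Of all probes, 14.2% were called in hypothalamus and 20.9% in cerebellum, so the cathepsin share lay below both. Ctsh, a lysosomal aminopeptidase, was lower in both. Its ratios in hypothalamus were 1.1, 1 and 0.961 fed and 0.818, 0.815 and 0.811 fasted (-0.32 ± 0.05, limma adjusted p = 0.0079), a call kept without any 1 array. In cerebellum they were 1.04, 1 and 0.991 fed and 0.814 and 0.86 fasted (-0.27 ± 0.06, adjusted p = 0.0119; -0.23 and 0.0936 without fasted cerebellum array 1). All fasted arrays lay below all fed ones in both regions, and the region difference was -0.05 ± 0.08, with a 95% interval from -0.23 to 0.13.

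Ctse, an aspartic protease of endosomes, was higher in fasted hypothalamus: 1.03, 0.995 and 1 fed and 1.42, 1.22 and 1.38 fasted (0.41 ± 0.07, limma adjusted p = 0.00935), and kept its call without any 1 array. In cerebellum the fasted arrays, at 1.14 and 1.11, also lay above the fed ones at 1.02, 1 and 0.886, but the change was not called (0.22 ± 0.08, adjusted p = 0.0834). Ctsc, the peptidase that activates granule serine proteases, had 4 probes. The probe on the RefSeq mRNA was lower in cerebellum, at 1.01, 1 and 0.992 fed and 0.78 and 0.784 fasted (-0.35 ± 0.06, adjusted p = 0.00394). The 3 EST probes were not called and had the other sign, at 0.21 ± 0.17, 0.38 ± 0.13 (adjusted p = 0.0688) and 0.74 ± 0.42; the last read 3.27 on fasted cerebellum array 1 and 0.857 on array 2.

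The abundant lysosomal proteases, named here for that role with their values seen, stayed uncalled within narrow intervals. Ctsd stood at 0.00 in hypothalamus (95% interval -0.14 to 0.15) and at 0.04 in cerebellum (-0.13 to 0.20). Ctsb stood at 0.07 (-0.11 to 0.25) and 0.10 (-0.11 to 0.30), and Ctsl at 0.08 (-0.04 to 0.20) and 0.13 (-0.01 to 0.26). For these 3 genes a change as large as the Ctsh call in hypothalamus, in either direction, lay outside the interval. In cerebellum, where the Ctsh change was -0.27, the upper end of the Ctsb interval (0.30) passed that size. These intervals hold only the spread of arrays, not that among mice. Microglia and other macrophages carry much of the brain's cathepsin, and their markers moved as well. Of 15 microglial probes 6 (40%) were lower and 0 higher in fasted hypothalamus, against 7.89% and 6.34% of all probes. They included Fcer1g (-0.32), Aif1 (-0.28), C1qa (-0.27) and Tyrobp (-0.25). Median ratios of the list were 0.888 to 0.916 fasted against 0.953 to 1.07 fed. In cerebellum 2 (13.3%, against 11.2% of all probes) were lower, Itgam (-0.49) and Tmem119 (-0.29). The median ratio of the list there was 0.924 on both fasted arrays against 1 on the fed. Ctss, itself a microglial cathepsin, stood at -0.09 ± 0.04 in hypothalamus (adjusted p = 0.135) and 0.06 ± 0.04 in cerebellum. The microglial markers were chosen with earlier results of these data known, and their part in the Ctsh result was not tested.

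**Figure D3:**
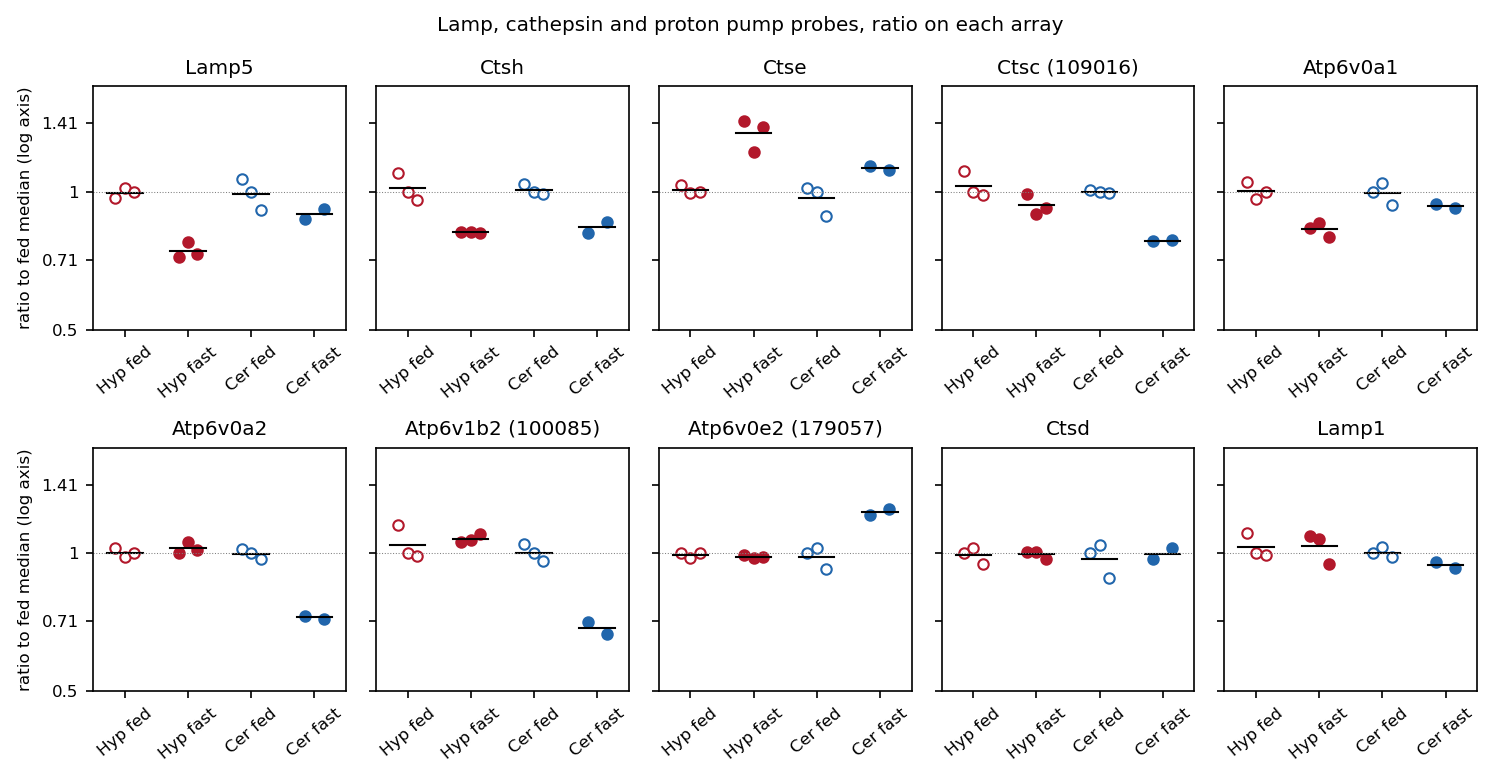
Scaled ratio to the fed median of the region (log axis) on each array for cathepsin, Lamp and proton pump probes, hypothalamus in red and cerebellum in blue, fed open and fasted filled, with black bars at the geometric group means. Ctsh lay below its fed arrays in both regions, Ctse above and Lamp5 below in hypothalamus, and Atp6v0a2 below in cerebellum, at 0.731 and 0.72.

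The proton pump had 2 of 26 probes lower and 0 higher in fasted hypothalamus (7.69% called, against 14.2% of all probes). Both were of the V0 sector. Atp6v0a1, the V0 subunit a of synaptic vesicles and lysosomes in neurons, read 1.05, 0.965 and 1 fed and 0.832, 0.853 and 0.798 fasted (-0.28 ± 0.05, limma adjusted p = 0.013; 0.0519 without fasted hypothalamus array 3). Atp6v0e, a small V0 subunit, read 1.06, 1 and 0.95 fed and 0.892, 0.874 and 0.861 fasted (-0.19 ± 0.05, adjusted p = 0.0408). The Atp6v0e call was lost when any of 9 of the 11 arrays was left out, fed hypothalamus array 3 and fed cerebellum array 3 excepted. Both genes had fasted arrays wholly below the fed ones. Their cerebellar changes, -0.09 ± 0.06 and -0.13 ± 0.06, were not called.

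In fasted cerebellum 4 pump probes were lower and 2 higher (23.1% called, near the 20.9% of all probes). By direction, 11.2% of all probes were lower and 9.66% higher. Atp6v0a2, the subunit a of Golgi and endosomes, read 1.02, 1 and 0.97 fed and 0.731 and 0.72 fasted, so that it fell by 27.3% (log2 -0.46 ± 0.04, limma adjusted p = 0.000163, the smallest of any member). In hypothalamus it read 1.02, 0.983 and 1 fed and 1, 1.06 and 1.02 fasted (0.03 ± 0.04), and the regions differed by 0.49 ± 0.06 (adjusted p = 0.000847). The cerebellar call and the difference were kept without any 1 array.

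Within the V1 sector, the A and B subunits form the ring that splits ATP. Atp6v1b2, the B subunit made in brain, read 1.05, 1 and 0.962 fed and 0.706 and 0.668 fasted in cerebellum on its RefSeq probe (-0.55 ± 0.07, limma adjusted p = 0.000911). Its EST probe did not share the fall (-0.02 ± 0.08), so the region difference of 0.59 ± 0.10 (adjusted p = 0.00409) holds for the first probe. Atp6v1a, the A subunit, read 1, 1.04 and 0.985 fed and 0.779 and 0.856 fasted (-0.30 ± 0.08, adjusted p = 0.0256), a call lost without fed cerebellum array 1, fed array 2 or fasted array 1. Atp6v1b1, the B subunit best known from kidney, stood at -0.25 ± 0.07 (adjusted p = 0.0418), lost when any of 9 of the 11 arrays was left out, fasted hypothalamus 3 and fed cerebellum 3 excepted.

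Higher in fasted cerebellum were a probe of Atp6v0e2, a small V0 subunit, and one of Atp6v1d, part of the central stalk. Atp6v0e2 read 1, 1.02 and 0.924 fed and 1.21 and 1.25 fasted (0.32 ± 0.05, limma adjusted p = 0.00199), and its second probe had the same sign without a call (0.24 ± 0.11). In hypothalamus the first probe stood at -0.01 ± 0.04, a region difference of -0.34 ± 0.07 (adjusted p = 0.00921). Atp6v1d read 1.03, 1 and 0.996 fed and 1.24 and 1.21 fasted (0.27 ± 0.07, adjusted p = 0.0268), while its second probe stood at 0.01 ± 0.09. That call was lost without any 1 of the 5 cerebellar arrays and with scaling to the 75th percentile (0.14, adjusted p = 0.141). An EST probe of Atp6v1e1, the peripheral stalk, differed between regions (0.60 ± 0.16, adjusted p = 0.0334) without a call in either: 1.46, 1.18 and 1.27 in fasted against 1, 0.971 and 1.09 in fed hypothalamus, and 0.901 and 0.908 in fasted against 1.26, 1 and 0.988 in fed cerebellum. Its RefSeq probe had the other sign (-0.26 ± 0.17), and the call was lost when any of 6 arrays was left out (fed hypothalamus 1 and 2, fasted hypothalamus 1 and 3, both fasted cerebellum arrays). The accessory proteins Atp6ap1 and Atp6ap2 stood between -0.05 and 0.13 and were not called.

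Several probes per gene allowed a check that a gene's direction did not depend on the probe. Of the 10 genes with over 1 probe, 6 had a call in a region (Atg4a, Ulk2, Ctsc, Atp6v0e2, Atp6v1b2 and Atp6v1d), and in 0 of them was a further probe called in that region. In cerebellum 6 of the 10 genes, and in hypothalamus 5, had probes of both signs. Values for these genes therefore belong to the probe.

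Some members with large values on a fasted cerebellum array were not called, and the 2 fasted arrays differed at them, as at the Ctsc probe above. Atp6v0d2, the V0 subunit of osteoclasts, read 128 on fasted array 1 and 1 on array 2, with fed ratios of 1.1, 1 and 0.998. Ctsm, a cathepsin of the rodent placenta, read 13.4 and 2.07 fasted and 0.737, 1 and 3.19 fed. Ctsk, the collagen-splitting cathepsin of bone, read 2.08 and 1.05 against 1.09, 1 and 0.889. Each was higher on array 1, the array that stood apart.

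**Figure D4:**
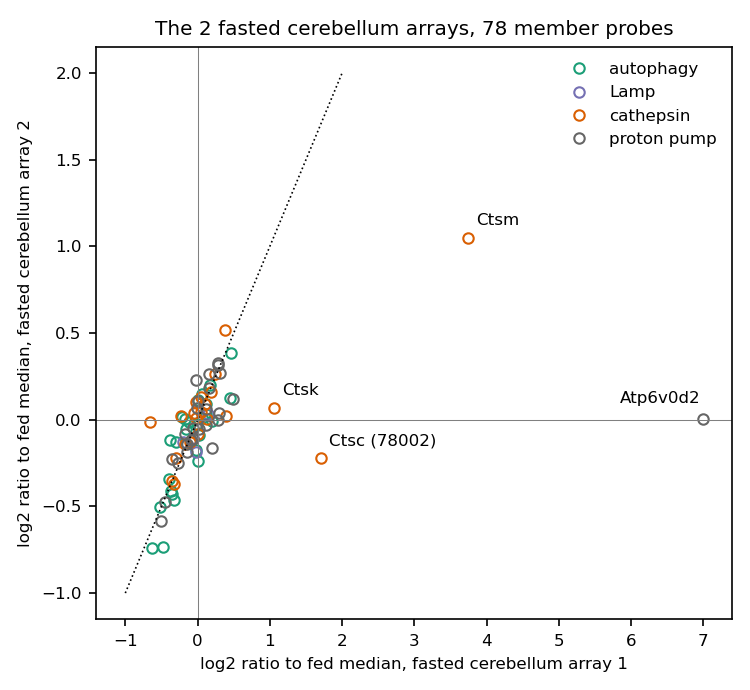
Scaled ratios of the 78 members on fasted cerebellum array 1 (horizontal) against array 2 (vertical), both axes logarithmic, with a dotted line at equal values. Most members lie close to the line, and Atp6v0d2 (128 against 1), Ctsm (13.4 against 2.07) and an EST probe of Ctsc (3.27 against 0.857) lie far from it.

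Genes of the same pathway outside the symbol rule were taken as lists, chosen with earlier results of these data known. Among 28 probes of 24 other autophagy genes, 1 was lower in hypothalamus (Fundc1, a mitophagy receptor, -0.32) and 6 were lower and 1 higher in cerebellum (25% called). The cerebellar ones included Tax1bp1, a cargo receptor (-0.36), Wipi2, which reads the lipid made by the Atg14 complex (-0.30), a probe of Rubcn, which inhibits a related complex of the same lipid kinase (-0.28; its other probe -0.13, not called), and 1 of 3 probes of Tecpr1, a tether of autophagosomes (0.25). The other Tecpr1 probes stood at -0.21 (limma adjusted p = 0.0517) and 0.07, so the gene has no single direction here. Sqstm1, the classical cargo receptor p62, stood at -0.03 ± 0.06 and 0.06 ± 0.07 and was not called. Called shares of this list were 3.57% in hypothalamus and 25% in cerebellum, against 14.2% and 20.9% of all probes. The median over this list was -0.02 in hypothalamus and -0.08 in cerebellum.

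Lysosomal hydrolases other than cathepsins gave more calls in cerebellum than the arrays at large. Of 32 probes 8 were lower and 2 higher (31.2% against 20.9%), with a median of -0.16, and 10 differed between regions (31.2% against 17.7%), 9 with the more positive change in hypothalamus. The largest were Pla2g15, a lysosomal phospholipase (0.533 and 0.521 in fasted cerebellum against 1, 1.05 and 0.897 fed, -0.90, limma adjusted p = 0.000252), Gm2a, the activator of ganglioside breakdown (-0.73), Galc, which degrades the myelin lipid galactosylceramide (-0.62), and Gaa, which degrades glycogen (-0.52). A second Pla2g15 probe was lower too (-0.21), while the second Gm2a probe was higher (0.24, adjusted p = 0.0392). In hypothalamus 3 were lower (Hexa -0.22, Tpp1 -0.21 and a Pla2g15 probe -0.14) and 1 higher (a Galns probe, 0.22), 12.5% in all against 14.2% of all probes. The other probes of Pla2g15 and Galns stood at -0.27 and -0.08 there and were not called. Oligodendrocyte markers, beside Galc, were lower at 4 of 10 probes (40%) in cerebellum, against 11.2% of all probes. Their median ratios were 0.992 to 1.00 fasted against 0.992 to 1.03 fed, and the part of these markers was not tested.

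Of 20 probes for lysosomal membrane and sorting proteins, 4 were lower in cerebellum: a probe of Mfsd8, a lysosomal channel protein (-0.59), the sorting receptors Sort1 (-0.36) and Igf2r (-0.18), and the cystine exporter Ctns (-0.26). In hypothalamus the same Mfsd8 probe (-0.23) and Cln3 (-0.16) were lower and Igf2r higher (0.14), and Igf2r differed between regions (0.31 ± 0.06, limma adjusted p = 0.00721). The other Mfsd8 probe was not called, at -0.25 in cerebellum and -0.18 in hypothalamus. Called shares of these 20 probes were 15% in hypothalamus and 20% in cerebellum, near those of all probes (14.2% and 20.9%). Nutrient sensing at the lysosome gave 5 calls of 24 probes in each region (20.8%), against 14.2% of all probes in hypothalamus and 20.9% in cerebellum. In hypothalamus Lamtor5 (-0.27) and Rheb (-0.25), which bring mTOR complex 1 to the lysosome and activate it, and a probe of Mitf (-0.20; its other probe -0.17, not called) were among the 4 lower, and Tsc1, an inhibitor of Rheb, was higher (0.28). In cerebellum Tfe3, a relative of Tfeb (-0.36), Tsc2 (-0.27) and a probe of Rptor (-0.21; its 3 other probes -0.07, -0.17 and -0.19, not called) were lower and Mlst8 was among 2 higher (0.33). Tfeb stood at -0.09 ± 0.05 and -0.15 ± 0.05 and was not called.

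Of 6 further pump probes, 2 were called in cerebellum (33.3%, against 20.9% of all probes) and 0 in hypothalamus. In cerebellum a probe of Tcirg1, the a subunit of osteoclasts, was lower (-0.59), and Rogdi, of the pump's assembly complex, was higher (0.39). The other Tcirg1 probe was not called there (-0.49 ± 0.27). It read 0.488 on fasted array 1 and 1.01 on array 2, against 0.792, 1.225 and 1 fed. Of 3 cathepsin inhibitors 0 were called in either region by limma, and 0 had an unadjusted p under 0.05 (Cst7 0.07 and -0.00). Markers of further cell types also moved beside the members. In hypothalamus 9 of 15 thalamus probes and 5 of 13 astrocyte probes were lower, 7 of 12 of pericytes and meninges were higher, and 6 of 14 of cerebellum were higher and 1 lower. Of 9 choroid plexus probes there 2 were lower and 1 higher, and of 5 of border macrophages 2 were lower and 1 higher. Lower too were 3 of 10 oligodendrocyte probes, while 0 of 10 of the hypothalamus list were called. Of all probes, 7.89% were lower and 6.34% higher in hypothalamus. In cerebellum 6 of 9 choroid plexus probes, 3 of 5 of border macrophages and 5 of 15 of thalamus were lower. Of 12 cerebellar probes of pericytes and meninges 5 were lower and 1 higher, of 13 of astrocytes 4 were lower and 3 higher, and of 18 pan-neuronal ones 2 were lower and 5 higher. In the same region 2 of 14 probes of the cerebellum list were lower. The hypothalamus list had 1 of 10 lower and 1 higher. Of all probes, 11.2% were lower and 9.66% higher in cerebellum. Median ratios of the cerebellum list were 1.23 to 1.46 on the fasted against 0.966 to 1.01 on the fed hypothalamus arrays, and those of the choroid plexus list 0.772 to 0.808 on the fasted against 0.966 to 1.02 on the fed cerebellum arrays. All these lists were chosen with earlier results of these data known. Their shares beside those of all probes are therefore no independent comparison. The part of these markers in the members' values was not tested.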

How the data were processed

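Expression was measured on 11 CodeLink arrays of 4 RNA pools. Per the labels' design text, cRNA was biotin-labelled and each pool hybridised in repeat. The values deposited by the authors are linear ratios: in each region every one of the 34999 probes had a fed median of 1 (tolerance 1e-06), and 0 values were missing. How the scans were read, background-corrected and scaled: not given in the sources used here. The number of arrays limits precision.

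Here every ratio was divided by the median of its array, floored at 0.1 and put on the log2 scale. A model with 4 group means was fitted to the 11 arrays with limma 3.58.1 (R 4.3.3; 7 residual and 1.82 prior degrees of freedom, no trend), with two-sided moderated tests and Benjamini-Hochberg adjustment over 34999 probes; adjusted p under 0.05 is a call. Scripts were tested on simulated data. Errors are SE unless stated.

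Genes came from the platform annotation, probes listing several genes being left out; all 65 member genes matched the RefSeq gene table. Per region the text names every called member, for a role without a call the 2 probes with the smallest residual SD, all further probes of a named gene, and up to 4 called genes of each other list by size (else the probe with the smallest residual SD). Genes beyond this are said to be so or complete a role. Members and lists were chosen with earlier results of these data known, so their shares beside those of all probes are no independent comparison. Alternatives were other floors (0.01 and 0.25), scaling to the 75th percentile, none or quantile normalization, leaving out extreme ratios, a variance trend, a replicate block, only the groups compared, and each array left out in turn.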

Additional observations from a re-analysis of the deposited data

Results flagged for a closer look

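Of the 78 member probes, 11 had a fasting change that differed between the regions by limma's interaction test, given here as the log2 change in hypothalamus minus that in cerebellum. More positive in hypothalamus were Atp6v1e1 (EST probe) by 0.60, Atp6v1b2 (RefSeq probe) by 0.59, Atg5 by 0.58, Atg13 by 0.56, Ulk1 by 0.49, Atp6v0a2 by 0.49, Ulk2 (cDNA probe) by 0.46 and Atg12 by 0.43. More negative in hypothalamus were Gabarapl1 at -0.67, Atp6v0e2 (one probe) at -0.34 and Gabarap at -0.29. Atp6v1b2, Atp6v0e2, Ulk2, Ulk1, Atg13 and Atp6v0a2, 6 of the 11, were called without any 1 array, and the other 5 were not.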

How the results depend on the processing

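Among the 78 members, hypothalamus had 9 calls, cerebellum 16 and the region difference 11. Shares of all probes called under the other settings are not given here. The counts below therefore do not compare the members with the arrays at large. Scaling to the 75th percentile gave 21 in hypothalamus (1 higher and 20 lower; the median of all probes was then -0.11) and 27 in cerebellum (1 higher and 26 lower; median of all probes -0.12), against 2 higher and 7 lower, and 3 higher and 13 lower, as reported. No scaling gave 14 in hypothalamus (2 higher, 12 lower) and 17 in cerebellum (2 higher, 15 lower), and only the groups compared gave 4 in hypothalamus. Quantile normalization over all arrays or within each region gave 0 in both regions and for the difference; 4, 8 and 5 members then had an unadjusted p under 0.05 in limma. The cause was not tested. Leaving out 1 array gave 3 to 13 calls in hypothalamus, 9 to 20 in cerebellum and 8 to 14 for the difference; where it left 1 fasted cerebellum array, that array was assumed to vary like the other groups. Of the named calls 3 of 9, 8 of 16 and 6 of 11 were kept without any 1 array, 0 were kept under all settings, and 0 reversed.

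Same-numbered arrays of different groups did not deviate together over all probes (correlations of -0.0383 to 0.0953 over 15 pairs), and the main model used no block. With so few arrays in a group, these correlations cannot settle whether replicate numbers pair arrays. With the replicate number as a block over all arrays the counts were 10, 16 and 14. With the block and only the groups compared they were 0 in hypothalamus and 0 in cerebellum, with 20 and 17 members at an unadjusted p under 0.05 in limma; the cause was not tested. Signal over background is not kept in ratios, so dim probes could not be told from bright ones, and pools without separate mice leave the spread between mice unknown.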
